A study of Mus musculus with 8 samples.

Results

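Genes whose products remove R-loops or answer DNA damage were followed through a DNA-RNA immunoprecipitation sequencing (DRIP-seq) experiment in mouse muscle stem cells (MuSCs) with and without the histone methyltransferase Kmt5b. The set comprised 50 gene symbols in 11 roles, and its members were all autosomal union peaks that the authors' table assigned to one of these symbols. The rule found 138 peaks of 44 genes among 27837 autosomal peaks. Mean scores over 30 were reached by 135 of these 138 peaks, which entered the test. The only peak of Xrcc5, 1 of 2 peaks of Fancd2 and 1 of 3 peaks of Rad52 did not.

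Both groups were MuSCs of tamoxifen-treated adult C57BL/6 mice that carried the Cre recombinase under the Pax7 promoter (Pax7CreERT), purified with magnetic beads and then cultured with serum, LIF and bFGF. Ctrl cells had the intact gene (Pax7CreERT/Suv4-20h1WT, where Suv4-20h1 is the older name of Kmt5b), and Kmt5b sKO cells had lost it in Pax7-expressing cells (Pax7CreERT/Suv4-20h1KO). There were 3 S9.6 libraries and 1 input library in each group, and only the S9.6 libraries had values in the table. S9.6 is an antibody against DNA-RNA hybrids, so a score in the table is the hybrid signal over a peak, scaled to a spike-in of Drosophila material by the authors. The comparison asks whether the hybrids over these genes were more or less abundant once Kmt5b was lost. In libraries from bulk cultures, more cells with a hybrid and more hybrids per cell cannot be told apart.

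An R-loop is a DNA-RNA hybrid with a displaced single strand of DNA, formed when a nascent transcript anneals back to its template. RNase H enzymes digest the RNA of the hybrid, helicases such as Aqr, Dhx9 and Ddx5 unwind it, topoisomerases relax the supercoils that favour it, and the THO complex packages the transcript before it can anneal. R-loops that stay in the path of a replication fork can stall it, and the kinase Atr, recruited by RPA-coated single-stranded DNA, then signals to Chek1. Fork protection, homologous recombination, end joining and nucleotide excision repair deal with the damage that follows.

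The total score over all union peaks lay between 3893768 and 4930261 per library. The median score of the tested peaks was 60 to 70 in the Ctrl libraries and 86 to 90 in the Kmt5b sKO libraries, and the median of all tested peaks was shifted by 0.35 on the log2 scale. Ctrl replicate 2 had the highest total of its group, 4729631. The table does not give the deletion in Kmt5b itself. Its one peak, 10.4 kb long, scored 412, 658 and 420 in Ctrl and 440, 449 and 484 in Kmt5b sKO, and a hybrid signal over the gene does not check the knockout. Of the MuSC markers, Pax7, Myod1, Itga7 and Des carried peaks, while Myf5, Cdh15, Vcam1 and Calcr did not. None of 4 fibro-adipogenic or 4 immune markers had a peak. Of 4 endothelial markers, Cdh5 and Kdr had no peak. Pecam1 and Tek had peaks and were called higher in Kmt5b sKO (log2 fold changes of the summed score 0.62 and 1.13), as were 25.6% of all tested genes. S9.6 signal is not expression, so peaks at marker genes do not show which cells were present. The part of other cell types in the results below was not tested.

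The sequences of 6 member peaks are shown as examples of the changed regions. They are Xrcc6 peak 4, which had one of the 5 largest gains, the 4 peaks called higher whose windows share a 12-base run described below, and the peak called lower. Each line is the central 200 bases of the peak on the coding strand in the GRCm38.p6 assembly, and capitals mark bases that the assembly masks as repeats.
Xrcc6 peak 4, chr15:82017401-82017600, + strand: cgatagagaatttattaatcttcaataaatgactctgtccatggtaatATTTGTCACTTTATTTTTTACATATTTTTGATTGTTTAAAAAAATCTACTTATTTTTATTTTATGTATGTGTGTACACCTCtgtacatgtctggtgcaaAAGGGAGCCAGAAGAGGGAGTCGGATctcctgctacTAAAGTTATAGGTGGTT
Prkdc peak 1, chr16:15649801-15650000, + strand: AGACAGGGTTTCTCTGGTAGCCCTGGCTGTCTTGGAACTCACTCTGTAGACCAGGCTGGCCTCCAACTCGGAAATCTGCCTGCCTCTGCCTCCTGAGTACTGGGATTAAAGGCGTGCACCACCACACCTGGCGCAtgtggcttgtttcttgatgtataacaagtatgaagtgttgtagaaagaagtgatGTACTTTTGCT
Mdm2 peak 2, chr10:117704301-117704500, - strand: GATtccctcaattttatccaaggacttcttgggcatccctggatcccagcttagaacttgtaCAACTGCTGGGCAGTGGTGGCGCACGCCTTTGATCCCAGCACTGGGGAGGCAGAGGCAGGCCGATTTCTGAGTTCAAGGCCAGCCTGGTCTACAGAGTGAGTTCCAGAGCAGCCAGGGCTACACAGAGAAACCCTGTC
Brca1 peak 1, chr11:101521501-101521700, - strand: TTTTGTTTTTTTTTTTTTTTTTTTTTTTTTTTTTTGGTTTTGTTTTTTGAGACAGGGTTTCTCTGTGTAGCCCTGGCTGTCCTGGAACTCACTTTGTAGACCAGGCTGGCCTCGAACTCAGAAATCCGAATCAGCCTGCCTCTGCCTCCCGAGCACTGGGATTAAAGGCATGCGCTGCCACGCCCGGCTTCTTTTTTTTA
Mdc1 peak 2, chr17:35855501-35855700, + strand: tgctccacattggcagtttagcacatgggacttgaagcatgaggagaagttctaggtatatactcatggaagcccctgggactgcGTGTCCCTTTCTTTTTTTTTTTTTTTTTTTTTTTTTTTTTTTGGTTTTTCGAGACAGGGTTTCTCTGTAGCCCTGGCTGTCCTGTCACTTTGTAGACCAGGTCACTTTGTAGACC
Polq peak 4, chr16:37061301-37061500, + strand: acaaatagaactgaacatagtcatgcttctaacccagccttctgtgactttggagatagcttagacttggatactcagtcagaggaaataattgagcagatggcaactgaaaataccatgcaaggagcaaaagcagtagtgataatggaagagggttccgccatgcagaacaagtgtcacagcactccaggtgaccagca
The Polq window, from the peak that was lower in Kmt5b sKO, held no masked base and lay in an exon. The printed windows of the peaks that were higher were masked over 57.5% (Mdc1) to 100% (Brca1) of their bases. Most of them were picked for a run that lies in masked sequence, and over the whole length of the 33 member peaks called higher the median share masked was 46.4%, with a minimum of 13.1%. The run GACAGGGTTTCT, searched on both strands, stood in the windows of Prkdc peak 1, Brca1 peak 1 and Mdc1 peak 2 and, as AGAAACCCTGTC, in that of Mdm2 peak 2. It was picked because it stood in the most windows of members called higher and in none of the other members, so its count among the members is no result. Of the windows of all 25815 tested peaks 2.73% held it, 4.59% of those called higher and 1.82% of the rest. Such a match describes the letters of the window and is not a binding site.

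Of the 135 tested member peaks, 33 were called higher in Kmt5b sKO (24.4%), where a call required a change of over 1.5-fold and, in limma with Benjamini-Hochberg adjustment, p under 0.1. Over all 25815 tested peaks the share called higher was 32.9%. One member peak (1 of 135), in Polq, was called lower, where 0.883% of all tested peaks were. The members' median log2 fold change was 0.18, with 92 of 135 positive, beside a median of 0.35 over all tested peaks, which 51 members exceeded. All 3 Kmt5b sKO libraries lay above all 3 Ctrl libraries in 45 member peaks (33.3%, background 41.5%) and below them in 7 (background 3.81%). On the spike-in scale 92 member peaks thus had higher values in Kmt5b sKO, but after each library was centred on its median 8 member peaks were called higher (background 10.3%) and 32 lower (background 11.9%).

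The peaks called higher belonged to 18 genes. Their log2 fold changes ran from 0.59 (Wrn peak 6) to 1.45 (Blm peak 3), Ctrl means from 19.3 to 195 and Kmt5b sKO means from 41.3 to 315. In 10 of these peaks the Ctrl mean did not reach the level filter, the mean score required for a test. They were tested only because of their Kmt5b sKO values, which favours gains. Blm peak 3, Xrcc6 peak 4, Prkdc peak 1, Fancd2 peak 1, Mdm2 peak 2 and the called Aqr peak were among them. The counts by role below include all 10. In 30 of the 33 the libraries of the groups did not overlap. The calls were made on the same libraries and favour such peaks, so this count adds no support to them. The exceptions were Rad51b peak 3, Blm peak 1 and Wrn peak 6. With 1 library left out, 24 (without Kmt5b sKO replicate 2), 26 (Ctrl replicate 3), 27 (Kmt5b sKO replicate 1), 28 (Ctrl replicate 1), 30 (Kmt5b sKO replicate 3) and 32 (Ctrl replicate 2) of the 33 stayed called, and 19 stayed called in all 6 cases. Without Kmt5b sKO replicate 2 the changes of Ercc5 peak 3 (0.52), Mdm4 peak 4 (0.57), Mdm2 peak 1 (0.58) and Rad52 peak 2 (0.59) were no longer called, and without Kmt5b sKO replicate 3 that of Prkdc peak 2 (0.57) was not. Thoc1 peak 1, Mdc1 peak 2 and Mdm4 peak 2 stayed called in 4, 4 and 2 of the 6 cases.

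**Figure D1:**
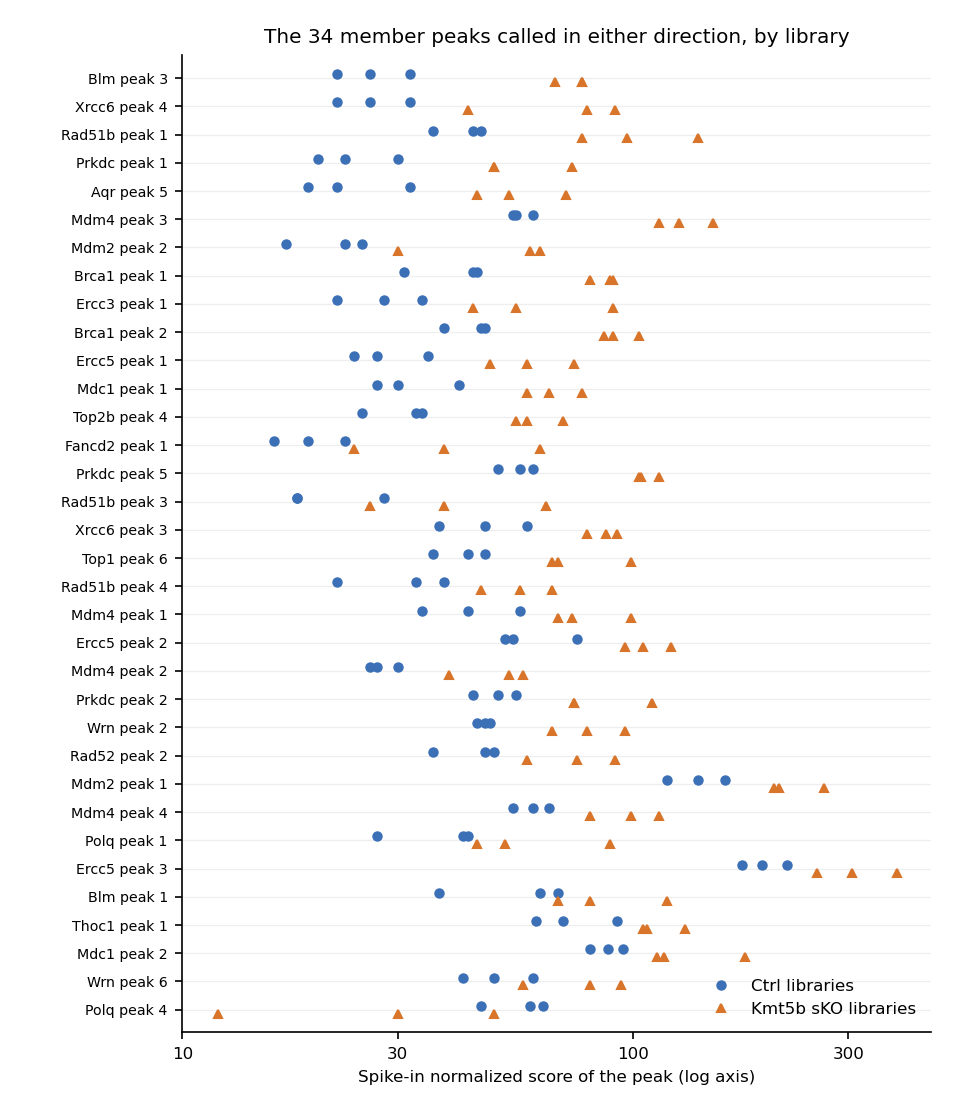
Spike-in normalized score (log axis) of the 34 member peaks called in either direction, ordered by fold change, with the 3 Ctrl libraries as circles and the 3 Kmt5b sKO libraries as triangles. Blm peak 3 lies at 22 to 32 in Ctrl and 67 to 77 in Kmt5b sKO, and Polq peak 4, at the bottom, is the one peak with lower values in Kmt5b sKO.

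The share of peaks called higher differed with peak length, as given further on, so each role is set beside the share among gene-body peaks of other genes weighted to the role's length classes (the like-length share). None of the 6 tested peaks of the nucleases, which digest the hybrid's RNA, and the transcript-release exonuclease Xrn2 was called, where the like-length share was 12.6%. Rnaseh2a, the catalytic subunit of RNase H2, had the highest level per length of this role in Ctrl, 34.3 per kb of peak. Its 3.6-kb peak scored 123, 137 and 110 in Ctrl and 186, 150 and 172 in Kmt5b sKO (log2 fold change 0.45, SE 0.18, adjusted p = 0.0336 in limma). The groups did not overlap, but the change stayed under the fold change threshold. Rnaseh2b, another RNase H2 subunit, scored 75 to 80 in Ctrl and 78 to 90 in Kmt5b sKO. The longest member peak, 20.8 kb over 18 exons of Xrn2, scored 699, 863 and 719 in Ctrl and 706, 887 and 864 in Kmt5b sKO (log2 fold change 0.11, SE 0.14). The libraries of the groups overlapped. Rnaseh1, the single-subunit RNase H, had no union peak over its gene.

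Among the R-loop and RNA helicases, 1 of 15 tested peaks was called (like-length share 13.6%). Ddx5, a DEAD-box helicase, carried the densest signal of any member gene, 58.5 per kb of peak in Ctrl. Its single 7.2-kb peak covered 11 exons and scored 383, 491 and 390 in Ctrl and 445, 539 and 444 in Kmt5b sKO (log2 fold change 0.18, SE 0.14, adjusted p = 0.335). Aqr, the intron-binding helicase that unwinds R-loops, held the one called peak. That 0.8-kb peak at chr2:114127600-114128399 scored 19, 22 and 32 in Ctrl and 71, 53 and 45 in Kmt5b sKO (log2 fold change 1.19, SE 0.35, adjusted p = 0.00337), with no overlap between groups. The 2 longest Aqr peaks, 12.4 and 13.6 kb, went the other way in value, with every Kmt5b sKO library below every Ctrl library and log2 fold changes of -0.31 and -0.23 that were not called. The 4 peaks of Dhx9 lay between -0.40 and 0.15, and Ddx17 and Ddx21 had no called peak.

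The topoisomerase genes held 23 tested peaks, of which 2 were called higher (like-length share 20.4%), 1 of 10 in Top1 and 1 of 9 in Top2b. Top2a, the cycling-cell enzyme, was the densest of them, with 37.2 per kb in Ctrl. Its 5.6-kb peak scored 190, 267 and 212 in Ctrl and 247, 208 and 216 in Kmt5b sKO, a log2 fold change of 0.01 (SE 0.16). Its other peak, of 3.2 kb, scored 90, 123 and 101 in Ctrl and 108, 95 and 124 in Kmt5b sKO, so that neither peak separated the groups. Top1, which relaxes supercoils around RNA polymerase, was called higher only at its 1.6-kb peak 6, with 36, 43 and 47 in Ctrl and 66, 68 and 99 in Kmt5b sKO (log2 fold change 0.85). The called Top2b peak was 1 kb long and scored 25 to 34 in Ctrl and 55 to 70 in Kmt5b sKO. No peak of Top3b, which also acts on RNA, was called.

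The THO subunits had 1 of 6 tested peaks called (like-length share 9.84%). Thoc1 had 1 of 2 peaks called higher, an intronic 2.4-kb peak at 61 to 92 in Ctrl and 105 to 130 in Kmt5b sKO. Its 12.8-kb peak at the end of the gene scored 454, 607 and 477 in Ctrl and 371, 413 and 451 in Kmt5b sKO (log2 fold change -0.31, adjusted p = 0.075), so the neighbouring peaks of this gene differed in sign. Thoc2l had the highest density of the role, 40.9 per kb in Ctrl, and its 17.2-kb peak scored 650, 955 and 751 in Ctrl and 683, 686 and 735 in Kmt5b sKO. That peak overlaps the annotated gene BC005561, and which gene it belongs to is uncertain.

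BRCA and Fanconi anaemia genes had few and short peaks, and 3 of the 4 tested were called higher (like-length share 38.3%). Brca1, which acts in homologous recombination and fork protection, had both its peaks called. Peak 1, a 1.2-kb intronic region at chr11:101521000-101522199, scored 45, 31 and 44 in Ctrl and 89, 90 and 80 in Kmt5b sKO (log2 fold change 1.11, SE 0.28, adjusted p = 0.000133). Peak 2, near the end of the gene, scored 47, 38 and 46 in Ctrl and 103, 86 and 90 in Kmt5b sKO (log2 fold change 1.08). Every Kmt5b sKO library exceeded every Ctrl library at both. Fancd2, which is loaded onto DNA at stalled forks, had the highest density of the role, 36.1 per kb in Ctrl, from only 2 intronic peaks of 0.6 kb. Its peak 1 scored 16, 19 and 23 in Ctrl and 62, 38 and 24 in Kmt5b sKO (log2 fold change 0.97, SE 0.45, adjusted p = 0.071). The Ctrl values of this peak all lay under the level filter, so it was tested only because of its Kmt5b sKO values. That favours a gain and bears on the 3 of 4 called in this role. This peak was called in only 2 of the 6 cases with 1 library left out. It was not called without Ctrl replicate 1 (log2 fold change 0.85, adjusted p = 0.168) or Ctrl replicate 3 (1.10, adjusted p = 0.135), and without Kmt5b sKO replicate 1 or 2 it fell under the level filter. Its peak 2, under the level filter, scored 28, 21 and 23 in Ctrl and 23, 28 and 11 in Kmt5b sKO. Fancm, a translocase that remodels forks, had 1 peak at 70 to 94 in Ctrl and 95 to 112 in Kmt5b sKO that was not called, and Brca2 had no union peak over its gene.

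RecQ helicases and fork factors held 18 tested peaks, 4 of them called higher (like-length share 28.5%), 2 in Blm and 2 in Wrn. Blm, the Bloom syndrome helicase, had the highest density of the role, 28.6 per kb in Ctrl, and the largest gain of any member peak. The peak, 1.4 kb within an intron, scored 32, 26 and 22 in Ctrl and 67, 77 and 77 in Kmt5b sKO (log2 fold change 1.45, SE 0.30, adjusted p = 2.93e-05). The groups stood well apart. The Ctrl mean of this peak, 26.7, did not reach the level filter, so it was tested only because of its Kmt5b sKO values. Blm peak 1 scored 37, 62 and 68 in Ctrl and 68, 119 and 80 in Kmt5b sKO (log2 fold change 0.67), where the highest Ctrl library equalled the lowest Kmt5b sKO library. That call was lost without Ctrl replicate 1 (0.41) and without Kmt5b sKO replicate 2 (0.45). Peak 4 scored 55, 38 and 39 in Ctrl and 63, 69 and 64 in Kmt5b sKO and fell just short of the fold change threshold at 0.58. The remaining 3 Blm peaks, 3.2 to 3.6 kb long, had log2 fold changes from -0.22 to -0.02. In Wrn, the Werner syndrome helicase, the called peaks 2 and 6 scored 42 to 60 in Ctrl and 57 to 96 in Kmt5b sKO, and the other five had positive values that were not called. The call of peak 6 was lost in 4 of the 6 cases with 1 library left out (log2 fold changes of 0.43 to 0.58).

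Rpa1, the large subunit of the protein that coats single-stranded DNA, had no called peak. Its 3-kb peak scored 76, 103 and 83 in Ctrl and 102, 102 and 78 in Kmt5b sKO (log2 fold change 0.11, SE 0.21). Its 2.4-kb peak scored 66, 65 and 48 in Ctrl and 46, 53 and 62 in Kmt5b sKO (log2 fold change -0.15, SE 0.26). In both peaks the groups overlapped. Recql5, a helicase bound to RNA polymerase, had no called peak among 3, and Smarcal1, an annealing helicase of stalled forks, had no union peak over its gene.

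No peak of a checkpoint gene was called among 7 tested (like-length share 36.5%). Atr, the kinase of replication stress, carried 2 peaks that together covered 2.97% of the gene. Peak 1, 0.6 kb, scored 29, 31 and 26 in Ctrl and 41, 26 and 41 in Kmt5b sKO (log2 fold change 0.29, SE 0.39). Peak 2, 2.2 kb, scored 61, 58 and 50 in Ctrl and 39, 80 and 81 in Kmt5b sKO (log2 fold change 0.17, SE 0.25, adjusted p = 0.623). In each peak 1 Kmt5b sKO library was at or below the Ctrl values while the other two were above them. Chek1, the kinase downstream of Atr, had the highest density of the role, 34.8 per kb in Ctrl. It scored 53, 65 and 49 in Ctrl and 74, 51 and 51 in Kmt5b sKO. Chek2, the kinase downstream of Atm, scored 42, 52 and 52 in Ctrl and 84, 82 and 54 in Kmt5b sKO (log2 fold change 0.56, SE 0.25, adjusted p = 0.0609) and stayed under the fold change threshold although its groups did not overlap. Atm and the Atr partner Atrip had no called peak.

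Mdm2, Mdm4 and Cdkn1a regulate or carry out the cell cycle arrest that follows DNA damage. They had 6 of 10 tested peaks called higher (like-length share 27.2%), all in the regulators Mdm2 and Mdm4 and none in Cdkn1a. Mdm2, a ubiquitin ligase, had both its peaks called. The longer, 4.8 kb, scored 119, 160 and 139 in Ctrl and 210, 265 and 205 in Kmt5b sKO (log2 fold change 0.70, SE 0.17, adjusted p = 0.000412). The shorter, 0.8 kb, scored 17, 23 and 25 in Ctrl and 59, 62 and 30 in Kmt5b sKO (log2 fold change 1.13). The Ctrl values of this shorter peak all lay under the level filter, so it was tested only because of its Kmt5b sKO values, which favours a gain. Mdm4, the partner of Mdm2, had 4 of 7 peaks called, with log2 fold changes of 0.85, 0.81, 1.18 and 0.69 in order from the start of the gene. Peak 3 was the strongest, with 55, 60 and 54 in Ctrl and 126, 114 and 150 in Kmt5b sKO (adjusted p = 1.08e-06). Its 2 long peaks in the rest of the gene, 9.4 and 13.2 kb, had log2 fold changes of 0.04 and 0.07. Cdkn1a, the p21 cell cycle inhibitor, was the densest of the role with 39.5 per kb in Ctrl. Its 4.2-kb peak scored 139, 183 and 176 in Ctrl and 195, 193 and 202 in Kmt5b sKO (log2 fold change 0.25, adjusted p = 0.236), so the groups did not overlap but the difference was not called.

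Sensors and signalling proteins of double-strand breaks had 2 of 9 tested peaks called higher (like-length share 26.3%), both in Mdc1, the scaffold that binds phosphorylated H2ax. Its 1.4-kb peak scored 41, 30 and 27 in Ctrl and 58, 65 and 77 in Kmt5b sKO (log2 fold change 1.02), and its 2.8-kb peak 95, 88 and 80 in Ctrl and 117, 177 and 113 in Kmt5b sKO (log2 fold change 0.60). Rad50, the coiled-coil subunit of the Mre11 complex, was the densest of the role, 36.7 per kb in Ctrl. It scored 57, 67 and 52 in Ctrl and 53, 66 and 90 in Kmt5b sKO (log2 fold change 0.22, SE 0.24), with overlapping groups. The 3 peaks of Parp1, the poly(ADP-ribose) polymerase, had log2 fold changes of -0.21, -0.34 and -0.27, none of them called. Nbn and Rif1 had no called peak. Mre11a is listed as Mre11, outside the rule, with 2 tested peaks at log2 fold changes of -0.14 and -0.10.

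Homologous recombination and end joining, the role with the most peaks, had 10 of 23 tested peaks called higher (43.5%, like-length share 31.5%) and 1 lower. Xrcc6, the Ku70 subunit that binds broken ends, was the densest with 33.8 per kb in Ctrl. Its 1-kb peak 4 scored 32, 26 and 22 in Ctrl and 79, 43 and 91 in Kmt5b sKO (log2 fold change 1.33, SE 0.31, adjusted p = 0.000201). Its peak 3 scored 58, 37 and 47 in Ctrl and 92, 87 and 79 in Kmt5b sKO (log2 fold change 0.87), and peak 2 scored 55, 64 and 53 in Ctrl and 102, 88 and 66 in Kmt5b sKO without reaching the fold change threshold. The first 4 Xrcc6 peaks overlap the annotated gene Desi1 and the table does not separate strands, so these hybrids could lie on either gene. In all, 17 of the 138 member peaks overlapped another annotated gene, and of those called higher only Xrcc6 peaks 3 and 4 did. Its 7.6-kb peak 1 scored 313, 285 and 281 in Ctrl and 296, 331 and 338 in Kmt5b sKO, and its 3.2-kb peak 5 scored 101, 100 and 69 in Ctrl and 93, 65 and 54 in Kmt5b sKO, both with overlapping groups.

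Rad51b, a homologous recombination gene spread over 517 kb, had 3 of 4 peaks called. Peak 1, 2.2 kb long, scored 36, 44 and 46 in Ctrl and 97, 139 and 77 in Kmt5b sKO (log2 fold change 1.26, SE 0.23, adjusted p = 4.14e-06). Peaks 3 and 4 scored 18 to 38 in Ctrl and 26 to 66 in Kmt5b sKO. The call of peak 3 was lost without Ctrl replicate 2 or 3 or Kmt5b sKO replicate 2, and that of peak 4 without Ctrl replicate 3 or Kmt5b sKO replicate 1, with log2 fold changes of 0.63 to 0.94. Without Kmt5b sKO replicate 1, peak 3 fell under the level filter. Prkdc, the catalytic subunit of DNA-dependent protein kinase, had 3 of 5 peaks called. Its peak 1 scored 23, 30 and 20 in Ctrl and 73, 49 and 49 in Kmt5b sKO (log2 fold change 1.19, SE 0.34, adjusted p = 0.00303). Peak 5 scored 56, 60 and 50 in Ctrl and 103, 104 and 114 in Kmt5b sKO (log2 fold change 0.94), and peak 2 scored 44 to 55 in Ctrl and 74 to 110 in Kmt5b sKO. In none of these peaks did the groups overlap. Rad52, which anneals single strands, had 1 called peak at 36 to 49 in Ctrl and 58 to 91 in Kmt5b sKO. The Xrcc5 peak, untested, scored 17, 26 and 24 in Ctrl and 64, 16 and 33 in Kmt5b sKO.

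Polq, the polymerase of microhomology-mediated end joining, was the only member gene with calls in both directions, and it held the 3 largest losses. Peak 4, 2.4 kb at chr16:37060200-37062599 within a single exon, scored 63, 59 and 46 in Ctrl and 49, 30 and 12 in Kmt5b sKO (log2 fold change -1.05, SE 0.33, adjusted p = 0.00696). The highest Kmt5b sKO library lay above the lowest Ctrl library, and without Kmt5b sKO replicate 3 the peak was not called (log2 fold change -0.52, adjusted p = 0.183). With the variance of each peak alone, tried after seeing the data, it was not called either. Peak 6 scored 145, 231 and 150 in Ctrl and 122, 131 and 115 in Kmt5b sKO (log2 fold change -0.48, SE 0.18, adjusted p = 0.0236), without overlap. Peak 3 scored 130, 166 and 138 in Ctrl and 131, 84 and 105 in Kmt5b sKO (log2 fold change -0.45, SE 0.19, adjusted p = 0.0445). Neither reached a fold change of 1.5. Near the start of the gene, peak 1 scored 27, 42 and 43 in Ctrl and 89, 45 and 52 in Kmt5b sKO (log2 fold change 0.68, adjusted p = 0.0475) and was called higher, but not without Kmt5b sKO replicate 1 (0.39) or without Ctrl replicate 1 (0.47).

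Nucleotide excision repair had 4 of 14 tested peaks called higher (like-length share 20.1%), all 3 of Ercc5 and 1 of 3 of Ercc3. Ercc5, the XPG endonuclease, gained at its 1.4-kb peak (24 to 35 in Ctrl, 48 to 74 in Kmt5b sKO), its 2.2-kb peak (52 to 75 and 96 to 121) and a 6.6-kb peak across the end of the gene that scored 174, 219 and 193 in Ctrl and 255, 385 and 306 in Kmt5b sKO (log2 fold change 0.67, adjusted p = 0.000243). That was the longest member peak called. Ercc3, the XPB helicase of TFIIH, was called at a 1.8-kb peak with 22 to 34 in Ctrl and 44 to 90 in Kmt5b sKO, and its 2 longer peaks had log2 fold changes of 0.43 and 0.40 without overlap between groups. Ercc6, the CSB translocase of transcription-coupled repair, was the densest with 39.8 per kb in Ctrl. Its peaks of 15.8 and 19 kb scored 715, 882 and 720 and 637, 832 and 605 in Ctrl, and 692, 798 and 650 and 597, 675 and 599 in Kmt5b sKO. The log2 fold changes of its 4 peaks lay between -0.21 and 0.11 and none was called. Ercc4, the XPF nuclease, had no called peak among 4. Fanca has 1 peak over its gene, which the table assigns to a gene model named Galnt2 spanning 4.43 Mb. It scored 68, 57 and 53 in Ctrl and 88, 77 and 98 in Kmt5b sKO (log2 fold change 0.56, adjusted p = 0.0395) and lies outside the rule.

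Summed over all peaks of a gene, 7 of 43 tested member genes were called higher (background 25.6%) and none lower (background 0.274%) in limma, where 13 were higher and 1 lower at the same adjusted p with no fold change minimum. With the same total in each library, median centring and quantile normalization 3, 2 and 2 genes were called higher, and 1 was called lower with median centring. The shares over all genes under these scalings, or with no fold change minimum, are not set beside these counts. Brca1 changed most, from a summed score of 83.7 ± 12.7 (SD, n = 3) in Ctrl to 179 ± 11.4 (SD, n = 3) in Kmt5b sKO (log2 fold change 1.10). Rad51b followed at 0.99, Prkdc at 0.80, Mdm2 at 0.78, Ercc5 at 0.76, Mdc1 at 0.74 and Rad52 at 0.62. The median over the member genes was 0.14, and 34 of 43 were positive. Polq, at -0.29, was the one gene with every Kmt5b sKO library below every Ctrl library, and Parp1 had -0.24. Summed over the 138 member peaks, the score was 19299, 23500 and 19312 in Ctrl and 21416, 22832 and 21797 in Kmt5b sKO, so the groups overlapped on Ctrl replicate 2.

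**Figure D2:**
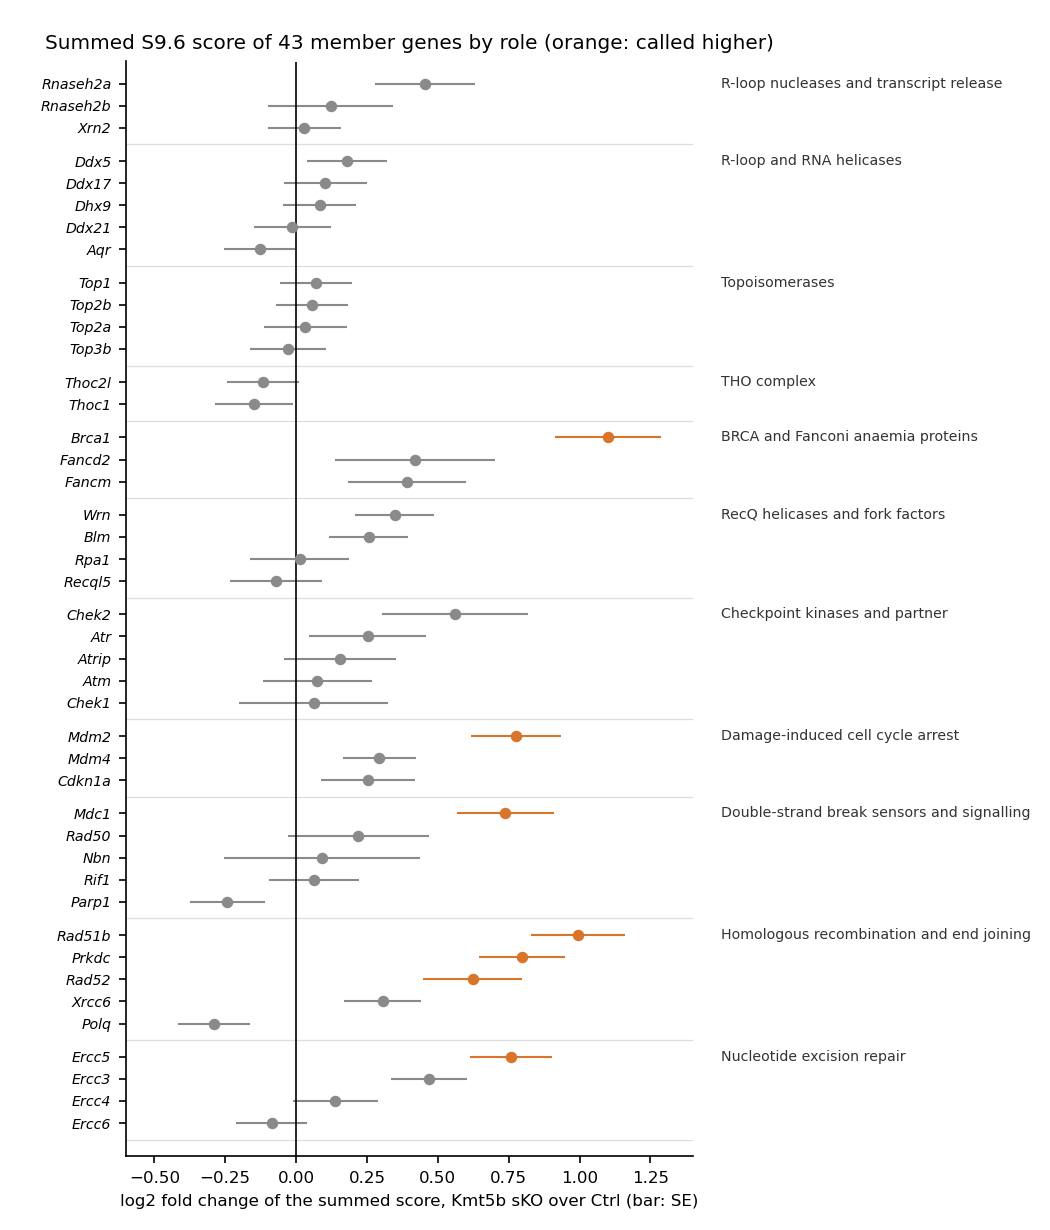
log2 fold change of the summed score (point) with its standard error (bar) for the 43 tested member genes, grouped by role. The 7 genes in orange were called higher, with Brca1 farthest right at 1.10, and the R-loop and RNA helicase, topoisomerase and THO genes lie between -0.15 and 0.18.

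No gene covered mostly by peaks was called higher. Peaks covered from 0.889% (Rad51b) to 96.2% (Top3b) of a member gene. Of the 17 genes covered over 40% none was called, and their median log2 fold change was 0.03. Of the 14 genes covered over 10% and up to 40%, 4 were called and the median was 0.28, and of the 12 with less coverage 3 were called, the median was 0.32 and all 12 were positive. The same classes of the 7256 other genes had 9.40%, 18.8% and 53.8% called and medians of 0.15, 0.26 and 0.65. Across the 43 member genes Spearman's rho between coverage and log2 fold change was -0.48, and across the other genes -0.46. The values share libraries and peak calling, and genes are not independent replicates.

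At the level of peaks the changes followed peak length. In gene-body peaks, whose centre lies inside the gene and over 1 kb from its start, 31 of 129 members were called higher (24.0%), beside 24.3% of 20664 peaks of other genes, or 24.2% when these were weighted to the members' length classes. Of members up to 1.6 kb, 16 of 31 were called (51.6%), beside 51.9% of the others. Between 1.8 and 2.2 kb it was 11 of 24 (45.8%) beside 29.9%, and between 2.4 and 3.4 kb 3 of 25 (12%) beside 19.3%. From 3.6 to 6.6 kb it was 1 of 23 (4.35%) beside 9.69%, and none of 26 members of 6.8 kb or more was called, beside 3.59%. These counts are a description and were not tested. The level filter bears on the shortest class, since a mean over 30 can be reached through the Kmt5b sKO libraries alone. Of its 31 members 13 had a Ctrl mean of at most 30, 9 of them called, and so did 1 called member of the next class. Without the level filter 17 of 34 members of the shortest class were called (50%), beside 48.4% of the others. Among peaks with a Ctrl mean over 30, a restriction chosen after seeing the data, it was 7 of 18 (38.9%) beside 41.6% in the shortest class and 10 of 23 (43.5%) beside 29.5% in the next, and the 3 longer classes were unchanged. Among members with a mean over 100, 3 were called higher and the median log2 fold change was 0.0013. The values of other peaks at this level are not set beside these, so they are no result about the members. The members' median log2 fold change fell from 0.74 in the shortest class to -0.03 in the longest, and that of the others from 0.66 to 0.05. Spearman's rho between length and log2 fold change was -0.64 over the 135 members and -0.57 over all tested peaks.

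**Figure D3:**
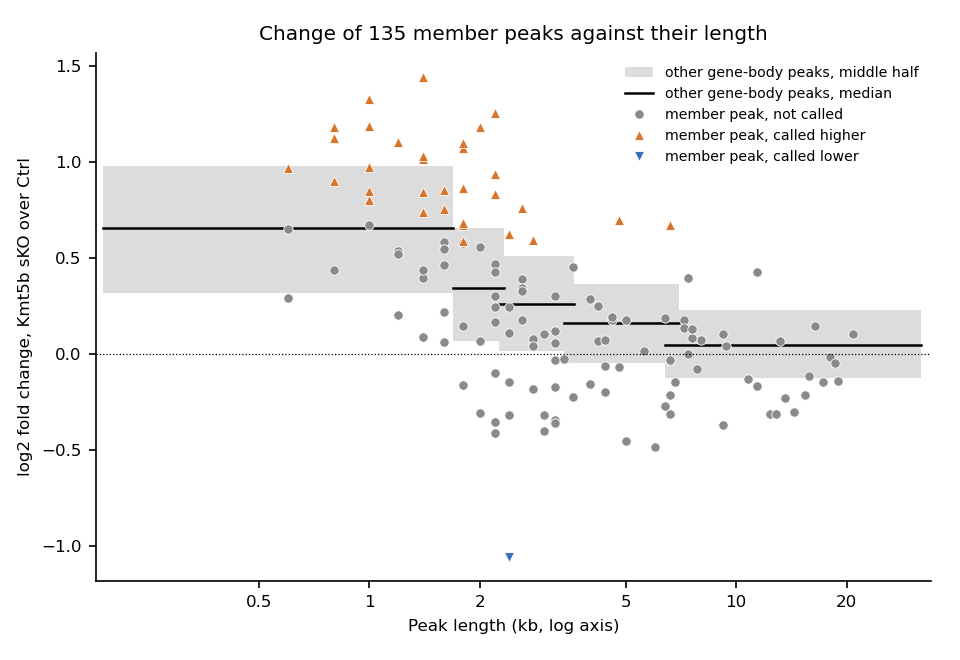
log2 fold change of the 135 tested member peaks against peak length (log axis), over the median (line) and middle range (grey, from the lower to the upper quartile) of other gene-body peaks in 5 length classes, the last of which is drawn to 30 kb only. Orange triangles are members called higher, 28 of them at most 2.2 kb long, the blue triangle is Polq peak 4, and members of 6.8 kb or more lie around 0.

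**Figure D4:**
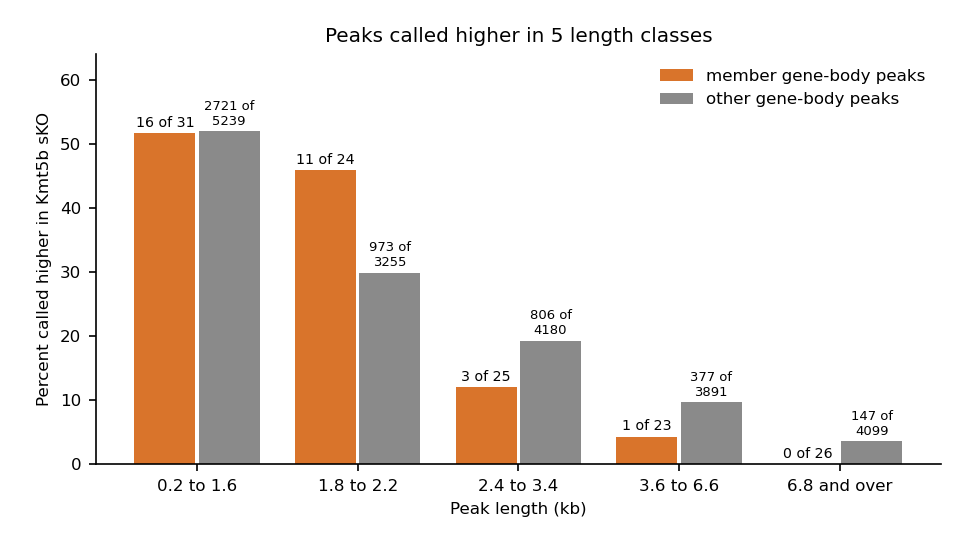
Percent of gene-body peaks called higher in Kmt5b sKO in 5 length classes, for members (orange) and peaks of other genes (grey), with counts above the bars. Both fall with length, from 51.6% and 51.9% in the shortest class to 0% and 3.59% in the longest.

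The same held within genes. In 19 member genes with tested peaks both under 3 kb and of 3 kb or more, 19 of 44 shorter peaks and 2 of 44 longer peaks were called higher. The same count is not given for other genes. The share of their gene-body peaks called higher also fell with length, from 51.9% in the shortest class to 3.59% in the longest. The mean log2 fold change of the shorter peaks exceeded that of the longer peaks in 17 of the 19 genes (89.5%), with Xrn2 and Rpa1 as the exceptions, beside 74.5% of 2566 other genes. The contrast was widest in Aqr, where the short and long means differed by 1.25, Xrcc6 (1.03) and Blm (0.99). The shorter peaks of these genes include the called Aqr peak, Xrcc6 peak 4 and Blm peak 3. These were tested only because of their Kmt5b sKO values, which favours gains, so the width of these contrasts adds no support. The level filter bears in the same way on the counts and means of shorter peaks above.

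**Figure D5:**
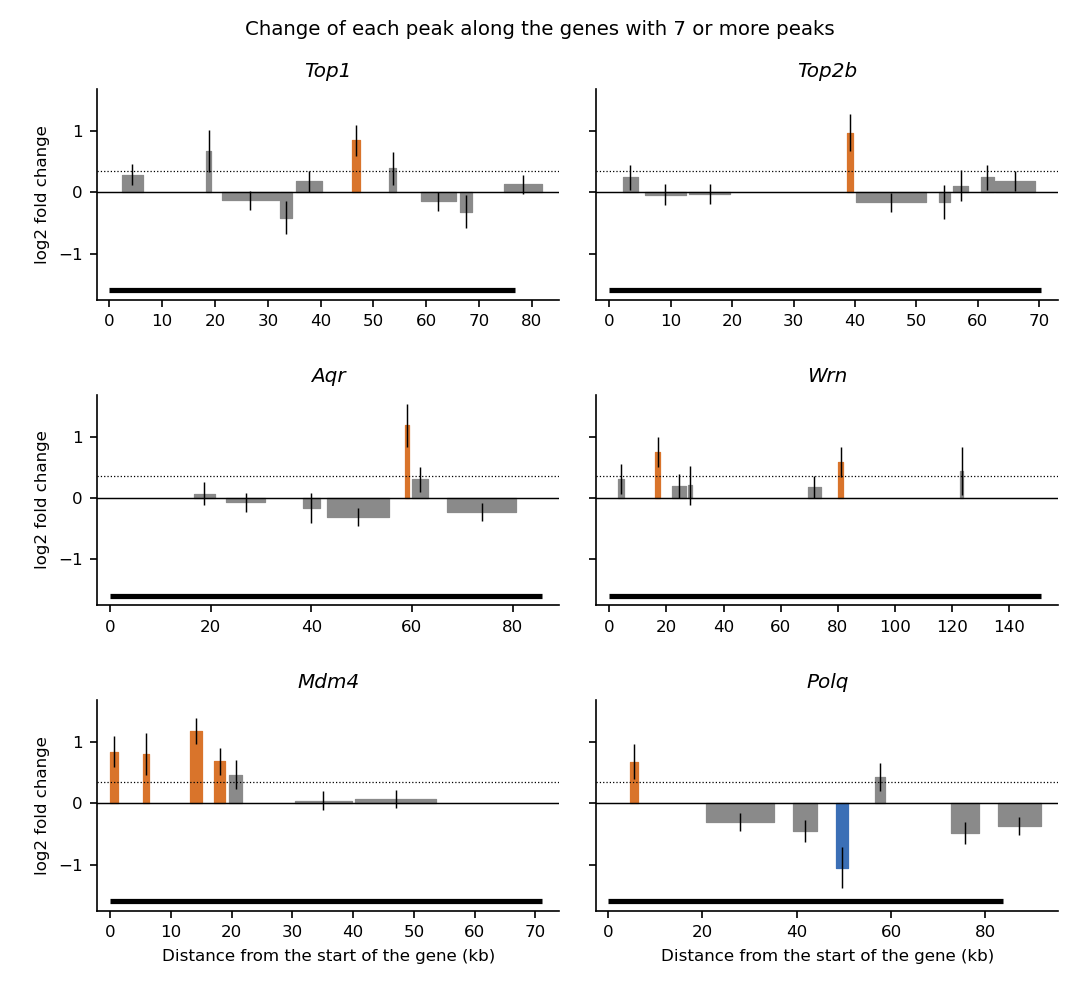
log2 fold change of each peak along the 6 member genes with 7 or more peaks, plotted by distance from the start of the gene. The width of a bar is the peak's length, the black bar at the bottom is the gene and the dotted line is the median of all tested peaks, 0.35. Vertical lines are standard errors of the fit, which follow the level of a peak and not the spread of its own libraries. Narrow peaks rise above wide neighbours in Aqr and Top2b, the 4 called peaks of Mdm4 lie at its start, and Polq has both a higher (orange) and a lower (blue) call.

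Length, which the rule used for its comparison, and features that it did not use were set side by side for called and other member peaks. Peaks called higher had a median length of 1600 bases, masked repeats over 46.4% of their bases, and an exon in 14 of 33. Those not called higher had 3300 bases, 25.3% and an exon in 79 of 102. Among gene-body peaks of at most 2.2 kb, repeats covered a median of 46.4% of 27 called members and 31.2% of 28 others, and the same figures were 44.0% and 26.5% in 3694 called and 4800 other peaks of the remaining genes. At this length an exon lay in 37.0% of the called and 42.9% of the other members. In the peaks of the remaining genes it was 20.5% and 34.5%. The share of G and C had medians of 41.3% in the called and 41.1% in the other members. Only 1 of the 138 peaks, in Mdm4, covered the start of its gene.

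A wider list of 137 other genes of R-loop control and DNA repair was set beside the members. It held 90 genes with rows and 192 tested peaks. Calls were made for 43 of them as higher (22.4%, where all tested peaks had 32.9%) and for 1 as lower (all tested peaks 0.883%). With the same total in each library, median centring and quantile normalization 17, 7 and 6 were higher. With median centring 10.3% of all tested peaks were, and the shares under the other scalings are not set beside these counts. Their median change was 0.25 (log2). On summed scores 17 of 88 genes were called higher (all genes 25.6%) and none lower. The largest gains on summed scores, named after their values were seen, were Bbc3, a proapoptotic gene, at 33, 33 and 39 in Ctrl and 90, 130 and 82 in Kmt5b sKO (log2 fold change 1.47), and Ercc1, the partner of Ercc4, at 27, 27 and 33 in Ctrl and 76, 61 and 85 in Kmt5b sKO (log2 fold change 1.32). Single peaks of Thoc5 (1.36) and Rev3l (1.33) gained more than that of Ercc1. The Ctrl means of these peaks (Thoc5 20.3, Rev3l 22.3, Ercc1 29) did not reach the level filter. They were tested only because of their Kmt5b sKO values, which favours gains, and the 43 calls include them. The peak called lower lay in Rev1, a translesion polymerase, at 75, 60 and 51 in Ctrl and 41, 14 and 64 in Kmt5b sKO, where the groups overlapped.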

How the data were processed

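DRIP-seq libraries of Ctrl and Kmt5b sKO MuSCs were prepared from 3 biological replicates each, per the study's methods, beside 1 input library each. The authors trimmed reads with Trimmomatic (0.39), kept unique alignments from STAR (2.7.3a) to mm10, removed duplicates with Picard (2.21.7), called broad peaks with an Epic2/SICER caller (listed as SICER, 0.0.41), merged them into union peaks, and deposited for each library a rounded score, the signal over the peak scaled to Drosophila reads. Read depth cannot be recovered from these scores, so no count model was run. The table does not separate strands. The number of S9.6 libraries limits precision.

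The members and lists were chosen with earlier results of these data known. From the deposited scores, log2(score + 1) of autosomal peaks with a mean over 30 (25815) was fitted with limma (3.58.1, R 4.3.3; lmFit, eBayes with a trend), two-sided, with Benjamini-Hochberg adjustment over all of them. Fold changes of low peaks are understated on this scale. Scores summed per symbol were fitted alike (7299 symbols). The variance came wholly from the trend. Standard errors and p-values therefore follow the level of a peak or gene and not the spread of its own libraries. On simulated scores of 22694 peaks for this comparison, 143 of 200 changes of 2-fold were called and 17 unchanged peaks. Exons came from GENCODE vM21, repeats and sequences from the RefSeq GRCm38.p6 assembly. Peak coordinates are printed as in the table, whose starts may lie 1 base before those of a browser. All called peaks are named. Some values and sequences that this rule covers are not reported here. Full values are given for the densest gene per role in Ctrl, the 5 largest gains, the 3 largest losses, the longest peak, Atr and Rpa1, and other members were added where they illustrate a role. Same-numbered libraries did not deviate together (correlations -0.0094, 0.0108 and -0.0272), so the fit had no block. Other levels, scalings, thresholds, variance models and leaving out each library were tried.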

Additional observations from a re-analysis of the deposited data

How the results depend on the processing

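The counts depended most on scaling. With the same total in each library, 18 member peaks were called higher and 5 lower, with median centring 8 and 32, and with quantile normalization 4 and 17. With median centring 10.3% of all tested peaks were called higher and 11.9% lower, and such shares are not given for the other scalings. The members' median log2 fold change of 0.18 became -0.026, -0.28 and -0.14, and -0.17 relative to the median of all tested peaks. Over all tested peaks the median fell as well under these scalings, from 0.35 to 0.15, -0.11 and -0.012. On summed scores, 3, 2 and 2 genes were called higher, and 1 lower with median centring. Other pathway peaks called higher numbered 17, 7 and 6. A mean score over 100 left 3 higher and 0 lower and a median of 0.0013. A fold change over 2 left 12 peaks and 1 gene higher. No fold change minimum gave 7 peaks lower, 13 genes higher and 1 gene lower. With the variance of each peak alone, tried after seeing the data, 21 were higher and 0 lower. Leaving out each library gave 25 to 38 peaks higher, 1 to 3 lower, medians of 0.13 to 0.27, 7 to 9 genes higher and 0 lower, and 35 to 40 other pathway peaks higher. The replicate block left 33 higher and 1 lower. Shares over all tested peaks or genes are not set beside the counts at other levels, thresholds, variance models or left-out libraries. These counts show how the calls depended on the settings and are no result about the members. Blm peak 3, Xrcc6 peak 4, Rad51b peak 1 and Mdm4 peak 3 stayed called higher, and Polq peak 4 lower, under all 3 scalings. No named peak changed sign with a call on either side. The study lists fewer uniquely mapped reads for every Kmt5b sKO S9.6 library than for any Ctrl one. The part of this difference in the results was not tested, and low scores limit the short peaks.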
